A study of Arabidopsis thaliana with 18 samples.

Results

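AT2G29370 and AT1G09500 are a pair of Arabidopsis thaliana genes of the reductase type, each measured by 1 probe set of the 22746 tested on the array. They were chosen on their measured intensity, which was highest in norflurazon-treated gun1-9 seedlings among the 6 groups of the series. Their levels there, and every comparison with treated gun1-9, are therefore given as a description without a test. The groups were gun1-9 on norflurazon and gun1-9 without it, gun5 on norflurazon and gun5 without it, and wild-type Col-0 on norflurazon and Col-0 without it, with 3 arrays each. All seedlings were 5 days old, had been kept in constant light on sucrose medium at 21 °C, and are described as seedlings with no dissected part named, so that every value is an average over cell types. Norflurazon was given in the plates at 5 uM. This herbicide inhibits the making of carotenoids, without which light bleaches the plastids.

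Mutants of the gun (genomes uncoupled) class go on expressing nuclear photosynthesis genes when plastids fail. The GUN1 protein works in plastids and carries pentatricopeptide repeats, and the GUN5 protein belongs to magnesium chelatase, which makes a precursor of chlorophyll. The labels do not say what the alleles change, and no probe set is annotated to either of these genes alone, so their transcripts were not analysed here.

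Short-chain dehydrogenase/reductases are a large enzyme superfamily that transfers hydride between NAD(P)H and carbonyl or hydroxyl groups. AT2G29370 belongs to the tropinone reductase-like branch. Tropinone reductases are named for a step of alkaloid synthesis in plants of the nightshade family, and for most of the Arabidopsis relatives the substrate is not established. AT1G09500 belongs to the branch that also holds cinnamoyl-CoA reductase of lignin synthesis and dihydroflavonol reductase (DFR) of anthocyanin synthesis, and is often described as cinnamyl-alcohol dehydrogenase-like. These family assignments are background knowledge. The annotation used here gives both genes only by locus code, with AT2G29370 on chromosome 2 and AT1G09500 on chromosome 1.

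AT2G29370 was a dim transcript in every group except treated gun1-9. Its intensity on the 3 arrays was 174, 193 and 182 in treated gun1-9, against 7.49, 10.7 and 9.53 in untreated gun1-9. The lowest treated gun1-9 array was far above the highest untreated one, and the 3 treated arrays lay close together, with a mean of 182.9 ± 9.17 (SD, n = 3) against 9.25 ± 1.63 (SD, n = 3). In gun5 the arrays read 8.54, 10.7 and 10.8 with norflurazon, against 5.58, 6.87 and 6.20 without it. In Col-0 they read 6.0, 5.86 and 6.65 with norflurazon, against 8.62, 9.24 and 11.9 without it. Within each of these genotypes the treated and untreated arrays did not overlap, and the direction was opposite, higher in treated gun5 and lower in treated Col-0.

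AT1G09500 was close to the lower end of the array's scale in 4 of the 6 groups. Its intensity was 62.9, 108 and 85.7 in treated gun1-9, against 3.11, 3.44 and 3.36 in untreated gun1-9. The 3 treated gun1-9 arrays spread more widely than for AT2G29370, with a mean of 85.4 ± 22.3 (SD, n = 3) against 3.30 ± 0.172 (SD, n = 3) in untreated gun1-9. Treated gun5 stood apart from the remaining groups, with 7.27, 8.61 and 6.92 on norflurazon, against 2.58, 3.38 and 3.24 without it. In Col-0 the arrays read 2.47, 2.95 and 2.19 with norflurazon, against 2.97, 3.06 and 3.54 without it. All 12 arrays of untreated gun1-9, untreated gun5, treated Col-0 and untreated Col-0 lay below 3.79, the mean first quartile of the arrays, which serves here as a dim level. The deposited values carry no detection call, so it is not known whether the transcript was detected in these groups.

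**Figure D1:**
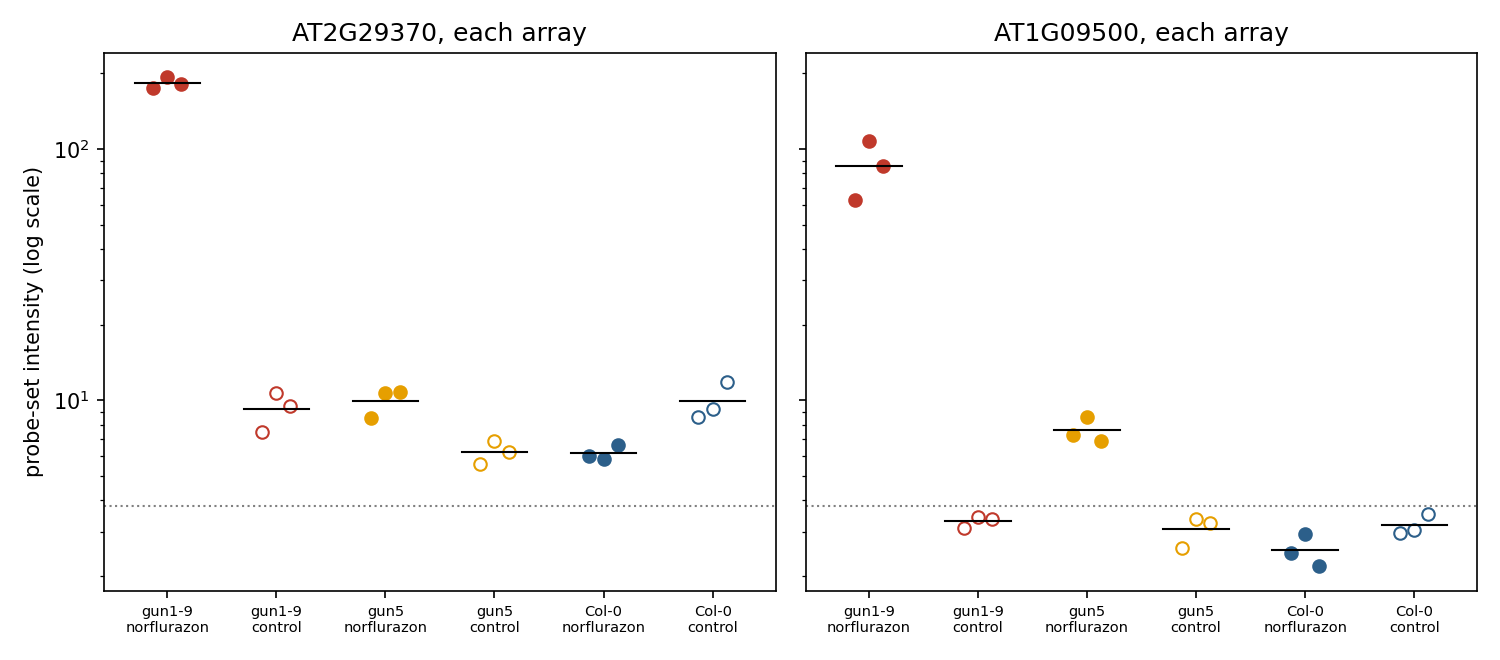
Probe-set intensity (log scale) of AT2G29370 (left) and AT1G09500 (right) on each array, by group; filled points are norflurazon arrays, open points untreated arrays, horizontal lines the means of 3 arrays and the dotted line the dim level of 3.79. Treated gun1-9 stands at 174 to 193 for AT2G29370 and 62.9 to 108 for AT1G09500, above all other arrays; for AT2G29370 the arrays of treated gun5 and untreated Col-0 overlap, and for AT1G09500 treated gun5 stands above the remaining groups.

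In descending order of the mean, AT2G29370 ran from treated gun1-9 through treated gun5 (9.98 ± 1.25), untreated Col-0 (9.91 ± 1.73), untreated gun1-9 (9.25 ± 1.63) and untreated gun5 (6.22 ± 0.645) to treated Col-0 (6.17 ± 0.422; SD, n = 3 for each). The arrays of treated gun5, untreated Col-0 and untreated gun1-9 overlapped, as did those of untreated gun5 and treated Col-0. For AT1G09500 the order was treated gun1-9, treated gun5 (7.60 ± 0.892), untreated gun1-9 (3.30 ± 0.172), untreated Col-0 (3.19 ± 0.306), untreated gun5 (3.07 ± 0.427) and treated Col-0 (2.54 ± 0.384; SD, n = 3 for each). The 3 untreated groups overlapped with each other, and untreated gun5 overlapped with treated Col-0.

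On the log2(intensity + 1) scale, which understates changes of dim probe sets, the change on norflurazon in gun1-9 was 4.18 ± 0.13 for AT2G29370 (SE of the limma fit, 18.1-fold) and 4.29 ± 0.15 for AT1G09500 (SE, 19.6-fold). Of all 22746 probe sets, 19 had a larger positive change in gun1-9 than AT2G29370 and 15 a larger one than AT1G09500. Counted from the dim level instead of from their own untreated values, treated gun1-9 was 5.26 higher on the log2 scale for AT2G29370 and 4.14 higher for AT1G09500. The size of the change depends on the constant added. With log2(intensity + 16) it was 2.98 for AT2G29370 and 2.37 for AT1G09500. The authors' background step could also matter for values this low, and was not varied.

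Set against the other genotypes on norflurazon, AT2G29370 was 4.07 ± 0.13 higher in treated gun1-9 than in treated gun5 and 4.68 ± 0.13 higher than in treated Col-0 (log2, SE). AT1G09500 was 3.30 ± 0.15 higher in treated gun1-9 than in treated gun5 and 4.58 ± 0.15 higher than in treated Col-0. The difference of the response, which takes the untreated levels into account, was 4.77 ± 0.19 between gun1-9 and Col-0 for AT2G29370 (log2, SE), a value exceeded by 8 probe sets, and 4.54 ± 0.21 for AT1G09500, exceeded by 13. Between gun1-9 and gun5 it was 3.57 ± 0.19 for AT2G29370, exceeded by 10 probe sets, and 3.21 ± 0.21 for AT1G09500, exceeded by 15. These comparisons share the treated and untreated gun1-9 arrays.

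The comparisons among the other 5 groups were not used to choose the genes and could be tested. The first asked whether norflurazon changes these genes in gun5 and in wild type. In gun5 both rose, AT2G29370 by 0.60 ± 0.13 on the log2 scale (SE, limma adjusted p = 0.002) and AT1G09500 by 1.08 ± 0.15 (SE, limma adjusted p = 3.53e-05). In that comparison 28.9% of all probe sets were called at an adjusted p under 0.05, 15.7% higher, so that a call by itself is common. By size, 1895 probe sets rose more than AT2G29370 in gun5 and 533 more than AT1G09500. In Col-0, where 39.3% of all probe sets were called, AT2G29370 had a log2 change of -0.60 ± 0.13 (SE, limma adjusted p = 0.00149), and AT1G09500 had a change of -0.25 ± 0.15 that was not called (adjusted p = 0.219, 95% interval -0.57 to 0.07).

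The responses of gun5 and Col-0 were then set against each other. The difference of the response was 1.20 ± 0.19 for AT2G29370 (log2, SE, limma adjusted p = 0.000154) and 1.33 ± 0.21 for AT1G09500 (adjusted p = 0.000224), where 16.8% of probe sets were called. For AT1G09500 the call was lost with log2(intensity + 16), where the difference was 0.36 (adjusted p = 0.128). By level on norflurazon, AT2G29370 was 0.61 ± 0.13 higher in treated gun5 than in treated Col-0 (adjusted p = 0.00196) and AT1G09500 1.28 ± 0.15 higher (adjusted p = 4.42e-06), with 27.5% of probe sets called.

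Without norflurazon, only AT2G29370 passed the test between genotypes, and only in untreated gun5 against untreated Col-0. AT2G29370 had a log2 difference of -0.09 ± 0.13 between untreated gun1-9 and untreated Col-0 (SE, limma adjusted p = 0.881, 95% interval -0.37 to 0.19), and AT1G09500 one of 0.04 ± 0.15 (adjusted p = 0.961, 95% interval -0.28 to 0.36). Neither was called, in a comparison with 0.396% of probe sets called. Untreated gun5 was lower than untreated Col-0 in AT2G29370 by a log2 difference of -0.59 ± 0.13 (adjusted p = 0.0309), with 1.67% of probe sets called. This call was lost when the fit held only the arrays compared (adjusted p = 0.118), and without 1 of 4 arrays: untreated Col-0 replicate 2 (adjusted p = 0.0514) or 3 (adjusted p = 0.143), or untreated gun5 replicate 1 (adjusted p = 0.133) or 3 (adjusted p = 0.0952). AT1G09500 differed by -0.05 ± 0.15 between untreated gun5 and untreated Col-0 (adjusted p = 0.951). Between untreated gun1-9 and untreated gun5 neither gene was called, with log2 differences of 0.50 ± 0.13 for AT2G29370 (adjusted p = 0.171) and 0.09 ± 0.15 for AT1G09500 (adjusted p = 0.937), where 0.163% of probe sets were called.

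Several controls of the array set treated gun1-9 apart, the 25S ribosomal RNA control by the widest margin. Marker sums moved with norflurazon in the genotypes to different extents. The 25S ribosomal RNA control of the array read 3143, 927 and 2370 on the treated gun1-9 arrays, in the same order of replicates as above, against 46.6, 24.7 and 40.1 on the untreated gun1-9 arrays. It lay between 49.0 and 96.9 in treated gun5, and between 32.3 and 55.9 in treated Col-0. Ubiquitin controls were also highest in treated gun1-9, by less. For 1 of them, the lowest treated gun1-9 array read 5299 and the highest treated Col-0 array 4575. Over all 18 arrays, the 25S control and AT2G29370 had a Pearson r of 0.944 on the log2 scale. Over the 15 arrays without treated gun1-9, r was 0.168. Within treated gun1-9, the array with the lowest 25S signal, 927, had the highest level of both genes. The summed intensity of the 3 measured of 6 markers of green tissue was 4466 to 4850 in treated gun1-9 against 9045 to 9530 in untreated gun1-9, 4142 to 4668 in treated gun5 against 9104 to 10060 in untreated gun5, and 723 to 786 in treated Col-0 against 8763 to 10460 in untreated Col-0. LHCB4.2 and PRK made up most of this sum. Their log2 changes in gun1-9, gun5 and Col-0 were -0.83, -1.52 and -4.14, and -0.96, -0.55 and -3.09. PORB had changes of -3.29, -3.85 and -4.76. These markers are themselves nuclear photosynthesis genes, which gun mutants go on expressing, so their sum need not follow the amount of green tissue. The 3 measured of 8 root markers summed to 1909 to 2787 in treated gun1-9 against 1221 to 1494 in untreated gun1-9, 1384 to 2111 in treated gun5 against 1192 to 1605 in untreated gun5, and 1738 to 2443 in treated Col-0 against 1084 to 1673 in untreated Col-0. AT5G17820, which averaged 1929 in treated gun1-9, made up most of the root sum. No measured marker was at 0, and the 5 seed storage markers were not measured singly. The part of these measures in the result was not tested, and in whole seedlings a change in the number of cells of a type and in RNA per cell cannot be told apart.

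AT2G29370 stands at one end of a run of related genes on chromosome 2, which allows its neighbours to be compared with it. Of 16 listed tropinone reductase-like genes, 15 have a probe set of their own, and 14 remain beside AT2G29370. In gun1-9, 6 of these 14 rose on norflurazon, 4 fell and 4 were not called, with a median log2 change of 0.08, against 0.02 over all probe sets, of which 36.3% were called, 20.5% higher and 15.7% lower. In gun5, 3 rose, 1 fell and 10 were not called (median 0.03), with 15.7% of all probe sets called higher and 13.2% lower. In Col-0, 2 rose, 6 fell and 6 were not called (median -0.16), with 24.2% of all probe sets called higher and 15.1% lower. Over all probe sets, 61.6% of the Col-0 calls were higher as deposited and 49.7% after centring arrays on their medians, and after centring the counts for this list were the same. The largest rise in gun1-9 among the 14 list genes was that of TRI, annotated as tropinone reductase, with a log2 change of 1.99.

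Along the run, the 4 consecutive genes AT2G29290, AT2G29300, AT2G29310 and AT2G29320 fell on norflurazon in Col-0, with log2 changes of -2.84, -1.09, -2.56 and -1.92. They also fell in gun1-9, with log2 changes of -1.66, -0.77, -0.70 and -0.74. In gun1-9 the fall of AT2G29310 was not called without untreated replicate 3 (-0.51, adjusted p = 0.127) or treated replicate 3 (-0.62, adjusted p = 0.0887), and that of AT2G29320 not without treated replicate 2 (-0.45, adjusted p = 0.0768). AT2G29290 averaged 155.7 ± 16.7 in treated gun1-9 against 495.2 ± 58.0 in untreated gun1-9, 455.8 ± 17.7 in treated gun5 against 514.9 ± 74.1 in untreated gun5, and 83.9 ± 7.81 in treated Col-0 against 613.3 ± 113 in untreated Col-0 (SD, n = 3 for each). In gun5 the log2 changes of AT2G29290 (-0.17), AT2G29300 (-0.31) and AT2G29310 (-0.18) were not called, and AT2G29320 fell (-1.02, limma adjusted p = 0.00151). The next 2 measured genes of the run went the other way in all 3 genotypes: TRI rose by 1.99 in gun1-9, 1.20 in gun5 and 1.34 in Col-0, and AT2G29340 by 0.94, 1.16 and 0.70. AT2G29360, the gene next to AT2G29370, averaged 183.0 ± 10.3 in treated gun1-9 against 176.6 ± 21.5 in untreated gun1-9, and 75.0 ± 31.8 in treated Col-0 against 172.0 ± 4.08 in untreated Col-0 (SD, n = 3 for each). It fell in Col-0 (log2 change -1.29, adjusted p = 0.000274) and was not called in gun1-9 (0.06, adjusted p = 0.889).

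**Figure D2:**
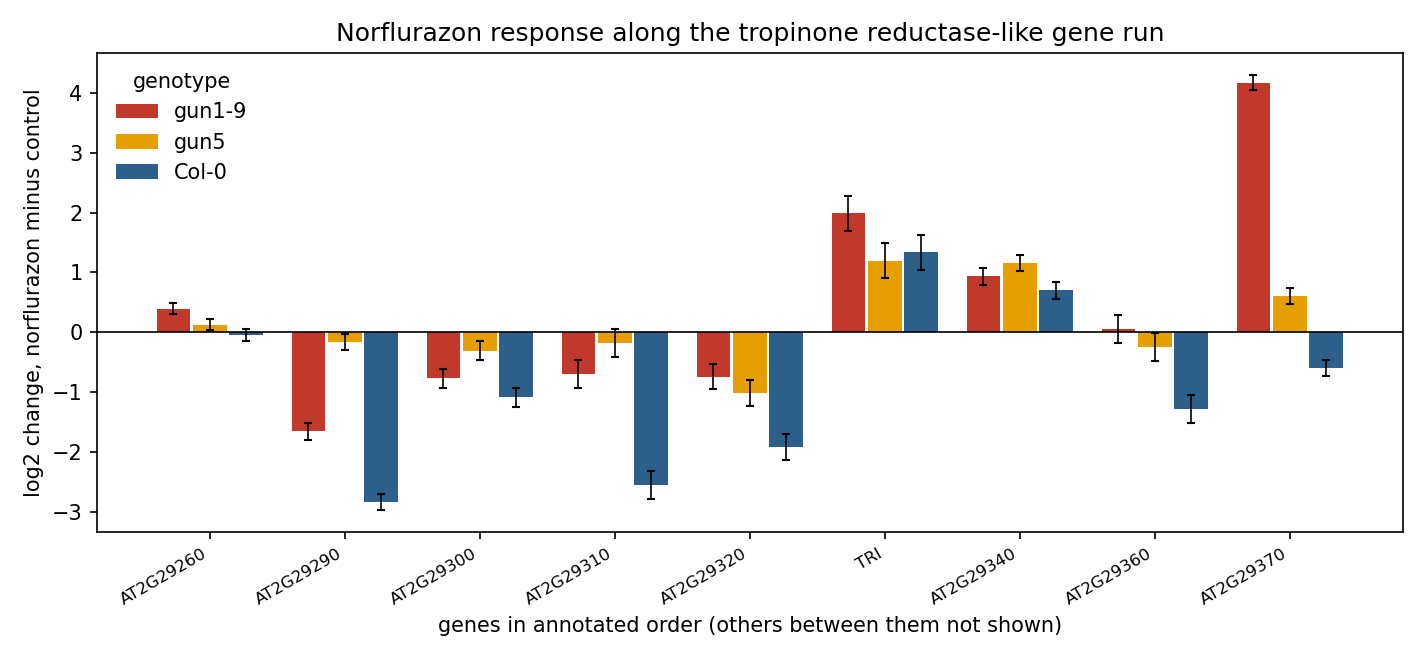
Log2 change on norflurazon of AT2G29370 and the 8 measured tropinone reductase-like genes before it in annotated order, in gun1-9, gun5 and Col-0 (bars, left to right); error bars are the SE of the limma fit. Genes of the run fall, rise or stay in place, and the bar of AT2G29370 in gun1-9, at 4.18, is more than that of any neighbour.

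The difference of the response between gun1-9 and Col-0 was called and positive for 7 of the 14 genes, and the other 7 were not called, where 15.3% of all probe sets were called, 8.07% higher and 7.21% lower. The median difference was 0.55, against -0.02 over all probe sets. The 7 were AT2G29310 (1.87), AT1G07440 (1.46), AT2G29360 (1.35), AT1G07450 (1.26), AT2G29290 (1.18), AT2G29320 (1.17) and AT2G29260 (0.44). The difference of AT2G29260 was not called with trend and robust settings of eBayes (adjusted p = 0.174), nor without untreated gun1-9 replicate 1 or 2, treated gun1-9 replicate 2 or 3, untreated Col-0 replicate 2 or 3, or treated Col-0 replicate 2 or 3, with values of 0.39 to 0.44. For AT2G29290, AT2G29310 and AT2G29320 the positive difference consisted of a larger fall in Col-0 than in gun1-9, and for AT2G29360 of a fall in Col-0 with no call in gun1-9. AT1G07440 fell in Col-0 (-0.90) and rose in gun1-9 (0.56), the same directions as AT2G29370. The shift of the list was not particular to gun1-9. Between gun5 and Col-0 the difference was called and positive for 5 of the 14 genes, and the other 9 were not called. The median there was 0.43, with 16.8% of all probe sets called, and the count of 5 was 3 to 7 over the alternatives. Between gun1-9 and gun5 the median difference of the list was -0.0035.

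AT1G07450, a tropinone reductase-like gene on chromosome 1, had the pattern nearest to that of AT2G29370 within the list (Pearson r = 0.897 over the 18 arrays). It averaged 32.4 ± 7.42 in treated gun1-9 against 11.1 ± 2.96 in untreated gun1-9, 11.2 ± 2.41 in treated gun5 against 9.08 ± 1.88 in untreated gun5, and 10.2 ± 1.47 in treated Col-0 against 8.67 ± 1.56 in untreated Col-0 (SD, n = 3 for each). The rise was called in gun1-9 (log2 change 1.48 ± 0.21 SE, limma adjusted p = 2.58e-05) and not in gun5 (0.27) or Col-0 (0.22). Its response differed between gun1-9 and Col-0 (1.26, adjusted p = 0.00658) and between gun1-9 and gun5 (1.21, adjusted p = 0.0212). AT1G07450 was singled out of the list for its likeness over arrays that include treated gun1-9, so these tests are not independent of that choice. Between gun1-9 and gun5 the difference was not called without treated gun1-9 replicate 1 (1.04, adjusted p = 0.0606), untreated gun5 replicate 3 (1.07, adjusted p = 0.0625) or treated gun5 replicate 3 (1.07, adjusted p = 0.0591). Between gun1-9 and gun5, where 5.46% of probe sets were called, 2.39% higher and 3.06% lower, AT2G29290 was the other called gene of the list, with a negative difference (-1.50).

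AT1G09500 also lies among relatives. Of 24 listed cinnamyl-alcohol dehydrogenase-like, cinnamoyl-CoA reductase-like and dihydroflavonol reductase-like genes, 16 have a probe set of their own, 15 beside AT1G09500. In gun1-9, 6 of the 15 rose and 2 fell, in gun5 3 rose and 3 fell, and in Col-0 6 rose and 1 fell. Over all probe sets the shares called higher and lower were 20.5% and 15.7% in gun1-9, 15.7% and 13.2% in gun5, and 24.2% and 15.1% in Col-0. The list had median log2 changes of 0.05 in gun1-9, 0.04 in gun5 and 0.02 in Col-0, against 0.02, 0.04 and 0.03 over all probe sets. AT1G09510, the gene next to AT1G09500, averaged 3.18 ± 0.354 in treated gun1-9 and 3.15 ± 0.136 in untreated gun1-9 (SD, n = 3 each), below the dim level in every group, and was not called. On the other side, 1 probe set is annotated to 2 neighbouring genes of the list together and so names neither. It averaged 76.9 ± 2.16 in treated gun1-9 against 39.1 ± 1.54 in untreated gun1-9, 52.6 ± 2.78 in treated gun5 against 37.2 ± 3.58 in untreated gun5, and 30.3 ± 3.76 in treated Col-0 against 40.5 ± 4.32 in untreated Col-0 (SD, n = 3 for each). It rose in gun1-9 (log2 change 0.96 ± 0.10 SE, limma adjusted p = 1.4e-06) and in gun5 (0.49, adjusted p = 0.00157) and fell in Col-0 (-0.41, adjusted p = 0.00452), and its response differed between gun1-9 and Col-0 by 1.37 (adjusted p = 3.04e-06). This probe set was singled out after its values were seen. Whether transcripts of near-identical neighbours bind each other's probe sets was not tested.

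DFR, which makes leucoanthocyanidins, averaged 131.8 ± 43.2 in treated gun1-9 against 30.6 ± 15.7 in untreated gun1-9, 12.4 ± 4.84 in treated gun5 against 73.0 ± 15.9 in untreated gun5, and 310.6 ± 87.8 in treated Col-0 against 49.6 ± 22.6 in untreated Col-0 (SD, n = 3 for each). It rose in gun1-9 (2.19) and Col-0 (2.71) and fell in gun5 (-2.50). CCR2, a cinnamoyl-CoA reductase, fell in gun1-9 (-0.57) and Col-0 (-0.51) near the dim level. Neither call held throughout. In gun1-9 it was lost with only the arrays compared (adjusted p = 0.0646) and without untreated replicate 2 (-0.33, adjusted p = 0.0785). In Col-0 it was lost with log2(intensity + 16) (-0.13, adjusted p = 0.0635), and without untreated replicate 2 (-0.39, adjusted p = 0.11) or treated replicate 2 (-0.48, adjusted p = 0.0659). BAN, the anthocyanidin reductase, was below that level in every group. AT5G19440 rose in gun1-9 (0.69), gun5 (0.24) and Col-0 (0.49). Its call in gun5 was lost with only the arrays compared, and without any 1 untreated gun5 array or treated gun5 replicate 2 or 3, with values of 0.22 to 0.25. The difference of the response between gun1-9 and Col-0 was called for 1 of the 15 genes, AT4G30470, and was negative (-0.61), where 7.21% of all probe sets were called lower and 8.07% higher. It was not called with only the arrays compared (adjusted p = 0.0537), nor without untreated gun1-9 replicate 3, treated gun1-9 replicate 3, untreated Col-0 replicate 1 or 3, or treated Col-0 replicate 1, with values of -0.58 to -0.47.

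Other enzymes that reduce carbonyls or their unsaturated relatives were listed for comparison. Of 34 such genes, 19 have a probe set of their own. In gun1-9, 3 rose and 3 fell, in gun5 2 rose and 2 fell, and in Col-0 2 rose and 4 fell. These counts stand beside 20.5% of all probe sets higher and 15.7% lower in gun1-9, 15.7% and 13.2% in gun5, and 24.2% and 15.1% in Col-0, and most are near or below those shares. AER, an NADPH-dependent alkenal reductase, averaged 623.9 ± 62.0 in treated gun1-9 against 209.7 ± 20.4 in untreated gun1-9, 225.1 ± 24.7 in treated gun5 against 187.0 ± 36.8 in untreated gun5, and 130.2 ± 9.35 in treated Col-0 against 196.0 ± 2.26 in untreated Col-0 (SD, n = 3 for each). It rose in gun1-9 (log2 change 1.57 ± 0.13 SE, limma adjusted p = 5.99e-08) and fell in Col-0 (-0.59, adjusted p = 0.00149), as AT2G29370 did. In gun5, where AT2G29370 rose, AER was not called (0.28, adjusted p = 0.125). AER is also among the 8 genes most like each of AT2G29370 and AT1G09500 over arrays that include treated gun1-9. Its tests are therefore not independent of that likeness. AT5G16980 rose in gun1-9 (2.24) and gun5 (1.33), whereas AT5G16990 fell in gun1-9 (-1.0), gun5 (-0.79) and Col-0 (-0.54). Its call in Col-0 was lost without untreated replicate 2 or 3 or any 1 treated Col-0 array, with values of -0.56 to -0.36. The difference of the response between gun1-9 and Col-0 was called higher for AER (2.16), AT5G16980 (1.75) and AT3G04000 (0.70) and lower for AT1G59960 (-0.82). For AT3G04000 it was not called with log2(intensity + 16) (0.17, adjusted p = 0.108), nor without untreated gun1-9 replicate 1, treated gun1-9 replicate 1 or 3, or any single Col-0 array, with values of 0.60 to 0.72.

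Genes that conjugate or export foreign compounds formed the last list, in which 14 of 46 genes have a probe set of their own. In gun1-9, 6 rose and 2 fell, in gun5 5 rose and 3 fell, and in Col-0 4 rose and 5 fell, against 20.5% of all probe sets higher and 15.7% lower in gun1-9, 15.7% and 13.2% in gun5, and 24.2% and 15.1% in Col-0. UGT73C1, a glycosyltransferase, had the difference between gun1-9 and Col-0 closest in size to those of AT2G29370 and AT1G09500 (4.61). It rose in all 3 genotypes, by 5.22 in gun1-9, 3.14 in gun5 and 0.60 in Col-0, with 68.2 ± 6.23 in treated gun5 against 6.85 ± 0.425 in untreated gun5 (SD, n = 3 each). UGT73B1 rose in gun1-9 (2.11) and gun5 (1.94), with differences of the response from Col-0 of 1.99 for gun1-9 and 1.83 for gun5. Part of these differences lay in the untreated levels. Untreated UGT73B1 was lower than in untreated Col-0 in gun1-9 (-0.70, limma adjusted p = 0.029) and in gun5 (-0.79, adjusted p = 0.00472). On norflurazon its level in gun1-9 was 1.30 above that in Col-0. AT2G04050, of the multidrug and toxin efflux carriers, rose in all 3 genotypes, by 6.58 in gun1-9, 5.36 in gun5 and 4.72 in Col-0. GSTU20, a glutathione transferase, fell in all 3 genotypes, with a difference between gun1-9 and Col-0 of -3.22.

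**Figure D3:**
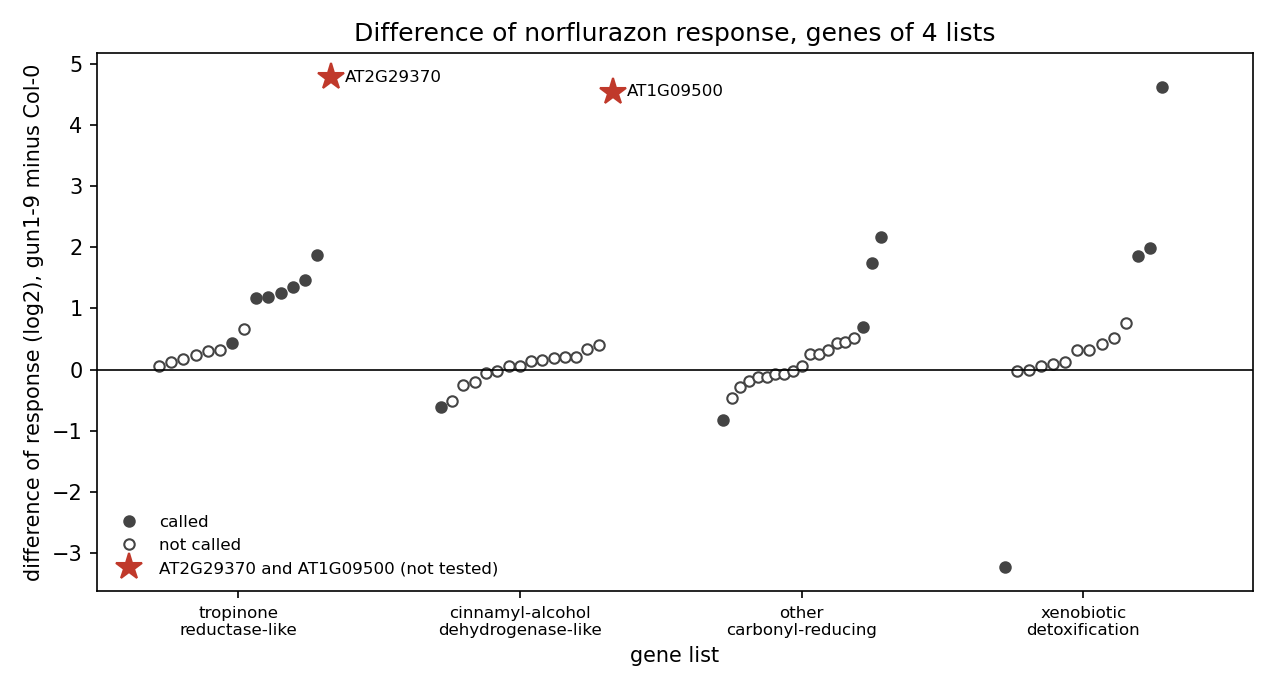
Difference of the norflurazon response between gun1-9 and Col-0 (log2) for the measured genes of 4 lists; filled points passed the test, open points did not, and stars mark AT2G29370 and AT1G09500, which were not tested because they were chosen for this pattern. Of the list genes, UGT73C1 at 4.61 lies nearest to AT2G29370 (4.77) and AT1G09500 (4.54).

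The patterns of AT2G29370 and AT1G09500 over the 18 arrays were close to each other, with a Pearson r of 0.974 on the log2 scale. Without the 3 treated gun1-9 arrays, r over the other 15 was 0.572, so that most of the likeness came from that group. Of 13436 probe sets with 1 gene, 21 had r over 0.9 with AT2G29370 and 30 with AT1G09500. These values describe likeness over arrays that share treatments and genotypes, and carry no test.

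The 8 genes most like AT2G29370 were AT1G09500 (0.974), UGT84A3 (0.971), AT5G45410 (0.952), AT5G50915 (0.950), AER (0.949), AT2G29500 (0.945), AT2G41890 (0.939) and AT5G14730 (0.936). Without treated gun1-9, r over 15 arrays was 0.663 for UGT84A3 and for AER, and 0.098 for AT2G41890. The 8 most like AT1G09500 were UGT84A3 (0.988), AT2G29370, AT5G45410 (0.970), AT5G61820 (0.963), AER (0.946), Hop3 (0.945), AT1G76600 (0.942) and AT1G49920 (0.936). Here UGT84A3 kept an r of 0.909 over the 15 arrays and AT5G61820 one of 0.879.

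UGT84A3, a glycosyltransferase, averaged 119.3 ± 12.2 in treated gun1-9 against 7.14 ± 0.516 in untreated gun1-9, 14.2 ± 2.11 in treated gun5 against 7.18 ± 1.09 in untreated gun5, and 4.17 ± 0.371 in treated Col-0 against 7.58 ± 1.31 in untreated Col-0 (SD, n = 3 for each). AT5G50915 and AT1G76600 reached 77.2 ± 7.76 and 188.4 ± 15.5 in treated gun1-9, but in treated gun5 AT5G50915 was at 8.43 ± 1.29 against 9.99 ± 2.61 in untreated gun5 (SD, n = 3 each). Hop3, a co-chaperone that links heat shock proteins, averaged 39.2 ± 9.34 in treated gun1-9 against 9.22 ± 0.909 in untreated gun1-9, and 14.4 ± 1.73 in treated gun5 against 5.71 ± 1.08 in untreated gun5 (SD, n = 3 for each). AT5G45410 and AT5G61820 had smaller log2 changes in gun1-9, of 1.05 and 1.09.

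**Figure D4:**
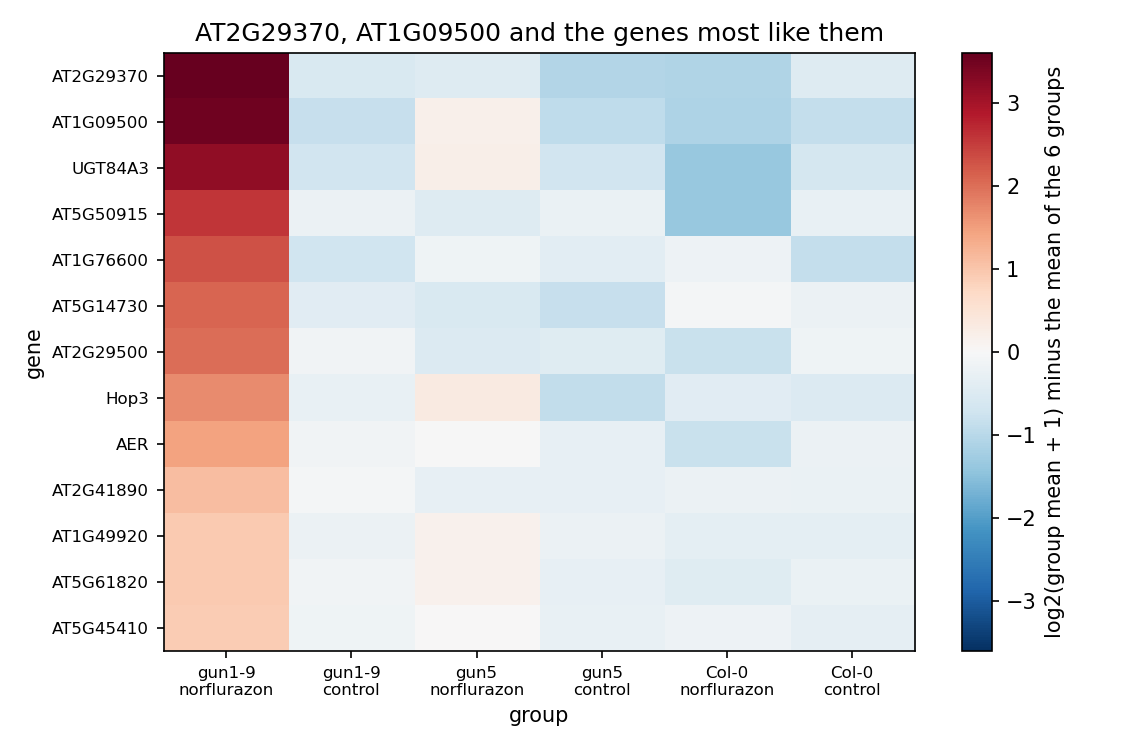
Group means of AT2G29370, AT1G09500 and the 11 genes most like them, as log2(mean intensity + 1) minus the mean of the gene's 6 groups (colour). Every gene is highest in treated gun1-9, which is how the genes were picked, and they differ in treated gun5 and treated Col-0.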

How the data were processed

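Biotin-labelled RNA of Arabidopsis seedlings was measured on Affymetrix arrays, per the labels' protocols, with 3 arrays in each of 6 groups. The authors deposited 1 table of linear probe-set intensity values. Array medians lay between 14.7 and 16.3, so the intensity values look normalized between arrays as deposited. The submitters' processing notes name GCRMA and MAS5 without their roles or versions; GCRMA can press dim probe sets into a narrow band. No genome build is given in the sources used here, so no coordinates are printed.

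Of 22810 probe sets, 64 controls were left out. The platform annotation names 1 gene for 13513 and several for 503, and does not list 8730; 13436 of the 13513 were found in a reference gene table of the TAIR10.1 assembly, which also gave the gene order. Probe sets with several genes name none here. From the deposited intensities, log2(intensity + 1) was computed and the 6 group means were fitted over 18 arrays with limma 3.58.1 in R 4.3.3 (lmFit, eBayes, prior degrees of freedom 4.48). P-values were 2-sided and adjusted by Benjamini-Hochberg over all 22746 probe sets within each of 12 contrasts, with calls under 0.05. The fit was run on simulated data with independent noise, in which 100 probe sets changed by a log2 size of 1 and 100 by 2 in treated Col-0. It recovered 90% and 100% of these, with 11 false calls. The simulation held fewer changes than the data, where 39.3% of probe sets were called for Col-0, and no correlation between arrays. The series design calls the arrays biological replicates, and 3 arrays a group limit the precision.

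The genes AT2G29370 and AT1G09500, the lists and the tests were chosen with earlier results of these data known. The named genes are both of these, measured genes of the lists, and for each the 8 single-gene probe sets with the highest Pearson r over 18 arrays. None of the 9 zinc-type cinnamyl alcohol dehydrogenase genes listed has a probe set of its own. Alternatives were a replicate block, leaving out the dimmest 25% of probe sets, quantile normalization, centring on array medians, log2(intensity + 16), trend and robust settings of eBayes, a fit restricted to the arrays compared, and each array left out. Figures were drawn with matplotlib 3.10.9.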

Additional observations from a re-analysis of the deposited data

Results flagged for a closer look

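The difference of the norflurazon response between gun1-9 and Col-0 was 4.77 for AT2G29370 and 4.54 for AT1G09500 (log2). For both genes every treated array of gun1-9 was above its untreated arrays, and every treated array of Col-0 below its own. For AT1G09500 in Col-0 this separation was narrow, from 2.95 on the highest treated array to 2.97 on the lowest untreated array. All of these Col-0 arrays lay below the dim level for AT1G09500. The log2 change of AT1G09500 in Col-0 was not called (-0.25, limma adjusted p = 0.219). The difference of the response between gun1-9 and Col-0 was not tested because it was used to choose the genes. Between gun5 and Col-0 the difference was called, at 1.20 for AT2G29370 and 1.33 for AT1G09500. For AT1G09500 this call was lost with log2(intensity + 16) (0.36, limma adjusted p = 0.128).

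Among tropinone reductase-like genes, the response differed between gun1-9 and Col-0 for AT2G29260 (0.44), AT2G29290 (1.18), AT2G29310 (1.87), AT2G29320 (1.17), AT2G29360 (1.35), AT1G07440 (1.46) and AT1G07450 (1.26), and between gun1-9 and gun5 for AT2G29290 (-1.50) and AT1G07450 (1.21). In the family of AT1G09500 it differed between gun1-9 and Col-0 for AT4G30470 (-0.61) and for the probe set shared by 2 neighbours of AT1G09500 (1.37), and between gun1-9 and gun5 for AT5G19440 (0.45) and DFR (4.69). The difference of AT5G19440 was not called in 10 alternatives: after centring on array medians (adjusted p = 0.0628), with only the arrays compared (adjusted p = 0.0503), and without untreated gun1-9 replicate 1 or 3, treated gun1-9 replicate 2, any 1 untreated gun5 array, or treated gun5 replicate 1 or 2 (0.39 to 0.45).

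Among the other carbonyl-reducing genes, gun1-9 differed from Col-0 in AT1G59960 (-0.82), AER (2.16), AT5G16980 (1.75), AT3G04000 (0.70) and a probe set shared by 2 genes (1.51), and from gun5 in AER (1.29) and the same shared probe set (1.04). Among the detoxification genes, gun1-9 differed from Col-0 in UGT73C1 (4.61), UGT73B1 (1.99), GSTU20 (-3.22), AT2G04050 (1.86) and a probe set shared by 2 genes (0.93), and from gun5 in UGT73C1 (2.08) and AT2G04050 (1.22).

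The 25S ribosomal RNA control probe set, which entered no test, averaged 2147 in treated gun1-9 against 37.1 in untreated gun1-9. Its part in the levels of AT2G29370 and AT1G09500 was not tested.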

How the results depend on the processing

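With log2(intensity + 16), the changes with treated gun1-9 became smaller for AT2G29370: 2.98 against untreated gun1-9, 3.16 against treated Col-0, 2.94 against treated gun5, and 3.20 and 2.75 for the differences of response from Col-0 and gun5. For AT1G09500 they became 2.37, 2.43, 2.08, 2.42 and 2.06 in the same order, since a larger constant shrinks changes of dim values. Leaving out single arrays gave ranges for AT1G09500 of 4.11 to 4.50, 4.4 to 4.78, 3.12 to 3.50, 4.36 to 4.74 and 3.03 to 3.41. The lower level of AT2G29370 in untreated gun5 than in untreated Col-0 was not called with only the arrays compared or with trend and robust settings (-0.59 in each, adjusted p = 0.118 and 0.0756) or with log2(intensity + 16) (-0.22, adjusted p = 0.0741), and ranged from -0.67 to -0.46 without single arrays. The difference of response of AT1G09500 between gun5 and Col-0 was 0.36 with log2(intensity + 16) (adjusted p = 0.128). Differences that were never called changed sign without single arrays: AT2G29370 in untreated gun1-9 against untreated Col-0 (-0.20 to 0.037), and AT1G09500 in untreated gun5 against untreated Col-0 (-0.10 to 0.043) and in untreated gun1-9 against untreated gun5 (-0.0028 to 0.14).

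In the family of AT1G09500, the count of genes that fell in Col-0 was 0 with log2(intensity + 16) and 0 to 1 without single arrays, and the count that fell in gun1-9 was 1 with only the arrays compared and 1 to 2 without single arrays. The tropinone reductase-like genes that fell in gun5 numbered 1 to 2 without single arrays. Detoxification genes that fell in Col-0 numbered 3 without untreated Col-0 replicate 2, against 5. Of 111 calls for genes of the 4 lists and the shared probe set, 88 held in all alternatives run, 23 were lost in at least 1, and none changed direction. Probe sets called in the untreated comparisons were 90 for gun1-9 against Col-0 (1 with only the arrays compared, 141 with trend and robust settings, 27 to 120 without single arrays), 380 for gun5 against Col-0 (123 with only the arrays compared, 160 to 411 without single arrays) and 37 for gun1-9 against gun5 (11 with only the arrays compared, 93 with trend and robust settings, 59 with log2(intensity + 16), 15 to 48 without single arrays).

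The replicate block changed no call of AT2G29370 or AT1G09500. With it, the norflurazon response in gun1-9 was 4.18 for AT2G29370 and 4.29 for AT1G09500. Deviations from the group means correlated by 0.041 on average between same-numbered arrays of different groups (7 of 45 pairs over 0.1), and 14 of 18 arrays correlated best with their own number, a hint from the data and not the design. Both genes stayed in when the dimmest probe sets were left out by their mean over all arrays, a mean that for AT1G09500 is raised by the treated gun1-9 arrays on which it was chosen.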
